A study of Rattus norvegicus with 10 samples.

Results

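The opsin genes Opn3, Opn4, Opn5, Rgr and Rrh were followed in the supraoptic nucleus of rats in which Opn3 had been knocked down. They were taken from the deposited table by gene name, which gave 5 of 32623 genes, each under 1 identifier. Opsins are receptors with a bundle of membrane helices that hold a vitamin A derivative, retinal. Light changes the shape of retinal, and most opsins then activate a G protein, although some act as enzymes or binding proteins that handle retinal itself. Rods and cones use the visual opsins for sight, whereas the genes followed here are best known from other cells of the eye, from the skin and from deep brain sites.

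The samples were single supraoptic nuclei of male Sprague Dawley rats, an outbred strain, weighing 250 to 300 g. This hypothalamic nucleus holds large neurons that make vasopressin (Avp) or oxytocin (Oxt). Adeno-associated virus had brought a short hairpin RNA against Opn3 into one nucleus (shOpn3, n = 5) and a non-targeting hairpin into the opposite one (shControl, n = 5), so both groups carried virus, and no uninjected group was part of the series. Nuclei were punched out 2 weeks later with a 1 mm punch and extracted separately. The hairpin's sequence and promoter, the serotype, the side given each virus and the rats' ages were not given in the sources used here. Equal replicate numbers were taken to mark a pair, as the processing notes describe.

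Libraries held 33158341 to 39958578 reads, with no group difference beyond the spread (exact two-sided permutation test, p = 0.492). The unit below is the normalized count, a read count divided by a size factor of 0.942 to 1.07 per library, so that 1 unit is about 1 read. Gene lengths of the annotation used were not given, so these units rank samples for a gene and not genes against each other. The markers of the nucleus were abundant, as Avp and Oxt together reached 52511 to 158977 in shControl and 8429 to 30626 in shOpn3. Summed over 8 genes each, microglial markers ran from 9257 to 13124 in shControl and from 17413 to 36011 in shOpn3, with 8 of 8 called higher. Oligodendrocyte markers ran from 731349 to 1246220 and from 249044 to 470895, with 8 of 8 called lower. Neuronal markers ran from 82909 to 113252 and from 83219 to 136417, with 1 of 8 higher and 2 lower. Of 8 astrocyte markers, 3 were called higher and 1 lower. These calls were at a limma adjusted p under 0.05, where 8.48% of all genes tested were called lower and 10.4% higher. The part of these markers in the results below was not tested. In punched tissue, fewer cells of a type and less RNA per cell cannot be told apart.

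The windows before the gene starts differed widely among the 5 opsins. They were read as 250 bases upstream of each RefSeq gene start on assembly GRCr8, which need not be the build of the reads. The windows of Opn3 and Rgr are printed because the first was the richest in G and C bases and the second held a motif of retinal genes. Capitals mark the GC box letters GGGCGG and the letters TAATCC, the core bound by the retinal factor Crx, on either strand. Overlap between motifs was allowed.
Opn3, chr13:90152077-90152326, minus strand: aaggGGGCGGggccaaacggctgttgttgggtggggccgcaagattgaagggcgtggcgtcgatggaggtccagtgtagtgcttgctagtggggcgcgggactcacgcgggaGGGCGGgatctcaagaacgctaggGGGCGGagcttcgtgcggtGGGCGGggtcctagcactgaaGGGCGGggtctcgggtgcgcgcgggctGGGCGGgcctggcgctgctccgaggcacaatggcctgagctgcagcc
Rgr, chr16:12836487-12836736, minus strand: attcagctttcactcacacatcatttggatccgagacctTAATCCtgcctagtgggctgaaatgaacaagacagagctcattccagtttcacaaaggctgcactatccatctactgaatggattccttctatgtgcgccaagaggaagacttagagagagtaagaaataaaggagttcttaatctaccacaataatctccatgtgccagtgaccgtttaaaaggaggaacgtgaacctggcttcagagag

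The Opn3 window had 70.0% G and C bases, 24 CpG steps and 6 GC boxes. Its G and C share was above that of 91.8% of the 33469 windows of the same length, whose median was 51.2%, and a GC box stood in 30.5% of them. The other 4 opsins had no GC box, with 53.6% G and C in Opn4, 44.8% in Opn5, 43.6% in Rgr and 38.8% in Rrh. They held 5, 8, 4 and 2 CpG steps. TAATCC stood 1 time each in the windows of Opn4 and Rgr and in 6.34% of all windows. The TATA box letters TATAAA stood 1 time in the Opn5 window, on the strand opposite to the gene. Read on either strand, they stood in 12.9% of all windows. A cyclic AMP response element, TGACGTCA, was in none of the 5 and in 1.59% of all windows. These are matches of letters only.

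Opn3, the target of the hairpin, encodes encephalopsin, an opsin of brain and many other tissues. In shControl it stood at 1007 normalized counts in replicate 4, 841 in replicate 3, 719 in replicate 1, 694 in replicate 2 and 261 in replicate 5. In shOpn3 it stood at 290 in replicate 1, 193 in replicate 2, 159 in replicate 3, 154 in replicate 4 and 145 in replicate 5. Replicate 5 was the low control, and it lay inside the range of the knock-down samples, so the groups overlapped. The means were 704 ± 277 and 188 ± 59.7 (SD, n = 5 per group). Opn3 fell by 1.82 in log2 units (95% interval -2.51 to -1.12, SE 0.320, adjusted p = 0.00226 by limma), lower in 5 of 5 pairs. This fit took the samples as unpaired. With a block for the replicate number, the replicate block below, the SE was 0.249 (adjusted p = 0.00158 by limma).

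**Figure D1:**
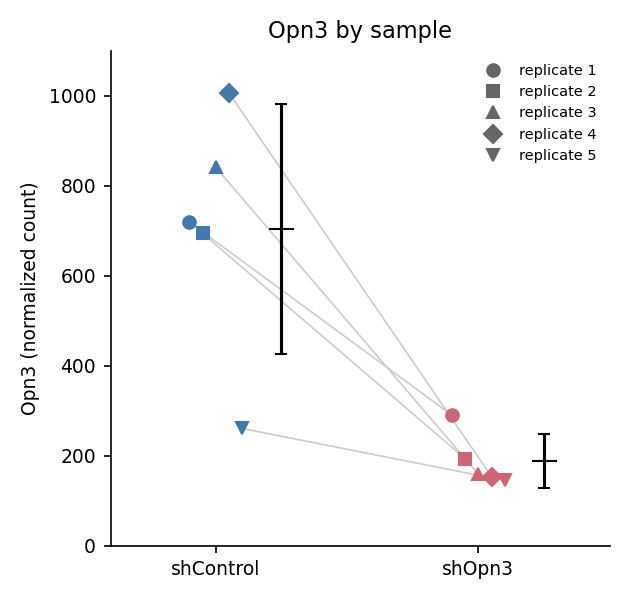
Opn3 in each sample, in normalized counts on a linear axis from 0. Points are samples with a marker shape per replicate number, grey lines join equal numbers, and the black bars give the mean and SD of 5 samples; shControl replicate 5, at 261, lies below shOpn3 replicate 1, at 290.

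The spread of the controls came mostly from that replicate. The coefficient of variation of Opn3 was 39.4% over the 5 controls and 17.5% over the other 4, which averaged 815 ± 143 (SD, n = 4). The transcript left in shOpn3 was 26.7% of the control mean and 23.1% without shControl replicate 5. By pair it was 15.3% for number 4, 18.9% for number 3, 27.9% for number 2, 40.3% for number 1 and 55.6% for number 5. The library of shControl replicate 5 held 33402693 reads, within the range of the others. Its oligodendrocyte sum was the highest of all libraries (1246220, against a median of 781358 in the other controls) and its neuronal sum the lowest of the controls (82909, against 109253). Its summed markers of ependyma, tanycytes and choroid plexus stood at 2488, against 286. That sum was mostly the gene Ttr, at 738 ± 958 over the controls, while Kl of the same list was at 74.3 ± 6.83 (SD, n = 5). Its astrocyte sum was the highest of the controls (397905, against 318515), and its sum of Avp and Oxt the lowest (52511, against 73826). Their part in its low Opn3 was not tested. Without shControl replicate 5, Opn3 fell by 2.14 on the log2 scale.

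Opn4 encodes melanopsin, the receptor of the light-sensitive ganglion cells of the retina, which signals through Gq. Its shControl values were 34.7, 20.4, 14.3, 22.5 and 11.6 normalized counts in replicates 1 to 5. Its shOpn3 values were 15.4, 14.9, 23.4, 22.2 and 17.5. The control group alone spanned more than the knock-down group, and the groups overlapped fully. The means were 20.7 ± 8.97 and 18.7 ± 3.92 (SD, n = 5 per group). The log2 change was -0.07 (adjusted p = 0.900 by limma, SE 0.290), with a 95% interval of 0.616 to 1.47 as a ratio. It was lower in 3 of 5 pairs.

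Rgr encodes a retinal G protein-coupled receptor of pigment epithelium and Müller glia that turns retinal back to its cis form in light. It had 22.4, 22.4, 14.3, 16.9 and 25.3 normalized counts in the shControl samples 1 to 5 and 20.1, 18.1, 26.2, 17.4 and 17.5 in shOpn3. No sample stood apart, and the highest value came from shOpn3 and the lowest from shControl. The means were 20.3 ± 4.53 and 19.8 ± 3.71 (SD, n = 5 per group), with a log2 change of -0.02 (adjusted p = 0.970 by limma, SE 0.222) and an interval of 0.707 to 1.38 as a ratio.

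Rrh encodes peropsin, a retinal-binding opsin of the pigment epithelium. It had 22.4, 17.3, 26.5, 24.3 and 27.4 normalized counts in the shControl samples 1 to 5 and 26.9, 19.1, 34.6, 26.1 and 33.9 in shOpn3. Each shOpn3 sample was above the control of its number, by 0.10 to 0.37 on the log2 scale. The 5 pairs allow no sign-flip p below 0.0625, which was reached (exact two-sided test). The groups still overlapped, at 23.6 ± 4.03 and 28.1 ± 6.36 (SD, n = 5 per group). Neither fit across all genes called it (log2 change 0.23, adjusted p = 0.510 by limma, SE 0.218, and 0.341 with the replicate block). Its interval as a ratio was 0.844 to 1.63.

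Opn5 encodes neuropsin, an opsin sensitive to short wavelengths that birds use in deep brain photoreception and that rodents make in some preoptic neurons. It had 5 reads in all 10 libraries together, with 2 and 1 in shControl replicates 4 and 5, 1 each in shOpn3 replicates 3 and 4, and 0 in the others. Each library was under the floor of 3 reads, so no level and no fold is given.

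**Figure D2:**
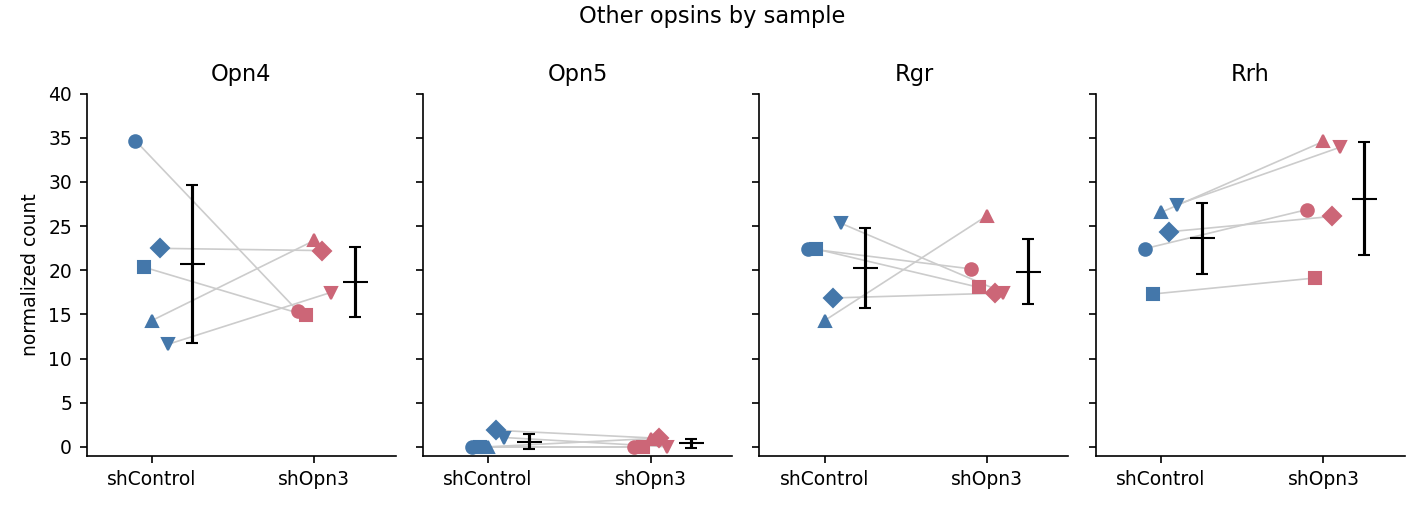
Opn4, Opn5, Rgr and Rrh in each sample, in normalized counts on a shared linear axis. Points, shapes, lines and bars are as for Opn3; the groups overlap for each gene, the 5 lines of Rrh all slope upward, and Opn5 stays at or below 1.87.

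The spread of Rgr and Rrh was close to that of counting alone. The variance of the 10 read counts was 0.834 times their mean for Rgr, 1.44 times for Rrh and 2.38 times for Opn4, where random counting alone gives about 1. For Opn3 the ratio was 109 within shControl and 19.0 within shOpn3, computed on normalized counts. The totals over 10 libraries were 4487 reads for Opn3, 198 for Opn4, 201 for Rgr and 260 for Rrh.

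Of the 5 opsins, 4 passed the filter of a mean of 10 normalized counts over all samples and 1 of them, Opn3, was called. Over all 15597 genes tested, 18.8% were called at an adjusted p under 0.05, with 8.48% lower and 10.4% higher in shOpn3, so this count says nothing particular to opsins. The ratio of Opn3 to each other measured opsin was compared instead. The log2 ratio of Opn3 to Opn4, in normalized counts not corrected for length, was 4.99 ± 0.64 in shControl against 3.24 ± 0.63 in shOpn3 (SD, n = 5 per group), a change of -1.75. Its ratio to Rgr changed by -1.80 and that to Rrh by -2.05. All 3 ratios were lower in 5 of 5 pairs, and each had an adjusted p of 0.0238 over the 3 comparisons (exact two-sided permutation tests). These permutation tests took the samples as unpaired. All 3 ratios hold the same Opn3 values, so they are not 3 separate results. In the fitted values Opn3 fell by more than Opn4, Rgr or Rrh changed. The intervals given for those genes, from the fit without pairs, do not reach the ratio of 0.284 fitted for Opn3. Over 5 pairs a sign-flip test allows no p below 0.0625, which each ratio gave.

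Opn3 was also set against neurons of the same punch. Relative to the mean log2 value of 8 neuronal markers it stood at -3.73 ± 0.63 in shControl against -5.56 ± 0.34 in shOpn3 (SD, n = 5 per group). The change of -1.84 had the smallest p that 5 against 5 samples allow (exact two-sided permutation test, p = 0.00794), and the ratio was lower in 5 of 5 pairs, for which a sign-flip test gave p = 0.0625, its smallest. The permutation test took the samples as unpaired. The markers are general to neurons, and of the 8, 1 was called higher and 2 lower by limma. The ratio thus does not measure Opn3 per neuron. Avp and Oxt, which mark the large neurons of this nucleus, had log2 changes of -2.35 and -2.21 (adjusted p = 0.00269 and 0.000915 by limma, SE 0.426 and 0.328).

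**Figure D3:**
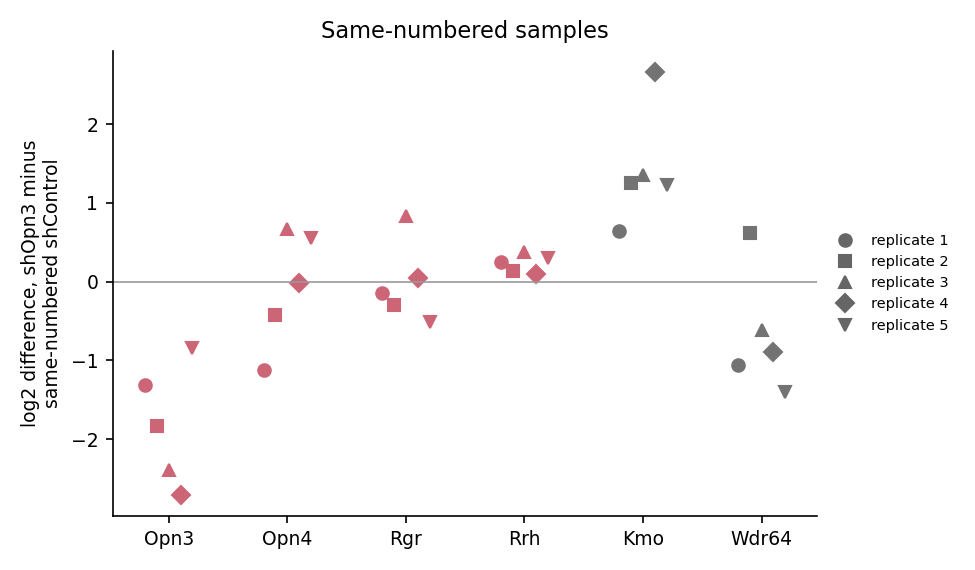
Log2 difference of each shOpn3 sample from the shControl sample of its number, for 4 opsins (red) and for Kmo and Wdr64 (grey). Opn3 lies between -2.70 and -0.84 in the 5 pairs, Opn4 and Rgr fall on both sides of 0, and Rrh lies between 0.10 and 0.37.

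The genes around Opn3 were examined because the counting's use of strand was not given. In the RefSeq table of GRCr8, Chml overlaps the span of Opn3 on the same strand and begins 21 bases from its start. Exons were not compared, and any reads over shared bases cannot be assigned. The deposited values held no gene named Chml, so it could not be analysed. Whether its reads were counted for Opn3 was not tested. The neighbours measured were Kmo and Wdr64, both on the other strand. Kmo, which encodes kynurenine monooxygenase, an enzyme of microglia that breaks down tryptophan products, had 106, 54.9, 40.8, 50.6 and 38.0 normalized counts in shControl replicates 1 to 5. In shOpn3 it had 166, 132, 106, 326 and 90.4. The knock-down sample was higher in 5 of 5 pairs, while the groups overlapped through shControl replicate 1. Kmo rose by 1.43 in log2 units (adjusted p = 0.0140 by limma, SE 0.351), beside the rise of microglial markers given above. Wdr64, a WD-repeat gene, had 53.5 ± 24.2 and 42.3 ± 38.3 normalized counts (SD, n = 5 per group), a log2 change of -0.67 (adjusted p = 0.492 by limma, SE 0.613), and was lower in 4 of 5 pairs.

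Opn1sw and Opn1mw, the cone pigments, averaged 3.76 ± 2.13 and 3.41 ± 1.78 in shControl and 4.0 ± 2.91 and 2.95 ± 2.11 in shOpn3 (SD, n = 5 per group) and were under the filter, so they were not tested. The photoreceptor factor Crx was at 0 in all 10 libraries, and Nrl and Rcvrn were under the filter.

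Of the G protein alpha subunits that opsins can use, 11 identifiers were tested. Called lower were 3 and higher 0, where 8.48% of all genes tested were lower and 10.4% higher, with a median log2 fold change of -0.09 beside -0.02 over all genes tested. With the replicate block 5 were called, 4 lower and 1 higher, where 30.3% of all genes were. Gnai1, an inhibitory subunit, had 4806 ± 484 normalized counts in shControl against 3521 ± 309 in shOpn3 (SD, n = 5 per group) and fell by 0.45 on the log2 scale (limma adjusted p = 0.00452). Gnas, the stimulatory subunit, stood beside 2 identifiers, whose reads the counting may have split, and they fell by 0.93 and 0.52 (limma adjusted p = 0.00783 and 0.00869). All 3 were lower in 5 of 5 pairs.

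The cascade behind melanopsin, a phospholipase C and channels of the TRPC family, held genes called in both directions. Of 9 genes tested, 3 were called higher and 1 lower, beside 10.4% and 8.48% of all genes, with a median of 0.17. The fit with the replicate block called 5, beside 30.3% of all genes. Trpc6 rose, at 339 ± 14.5 normalized counts in control nuclei against 733 ± 125 after knock-down (SD, n = 5 per group), a log2 change of 1.09 (adjusted p = 0.000176 by limma, SE 0.113). Trpc7 instead fell, at 439 ± 91.2 against 216 ± 30.7 (SD, n = 5 per group), a ratio of 0.499 (adjusted p = 0.00177 by limma). Both TRPC channels pass cations after phospholipase C is activated, and neither showed overlap between the groups, as was the case for 15.3% of all genes tested. Plcb2 and Plcb1, phospholipases of that step, rose by 1.05 and 0.36 (limma adjusted p = 0.00628 and 0.0363). Plcb4, the isoform used by melanopsin cells, had a log2 fold change of -0.27 (limma adjusted p = 0.275).

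Most genes of rod and cone transduction were not measurable, as 6 of 23 passed the filter. Of these, 2 were called, both lower, where 8.48% of all genes were lower, with a median of -0.30. The fit with that block called 3, beside 30.3% of all genes. Cngb1, a subunit of the cyclic nucleotide-gated channel of rods, had 256, 232, 242, 288 and 108 normalized counts in the shControl samples 1 to 5 and 97.9, 88.2, 54.2, 81.1 and 65.7 in shOpn3. Replicate 5 was again the low control, but here it stayed above the knock-down samples. Cngb1 fell by 1.48 in log2 units (adjusted p = 0.00210 by limma, SE 0.257). Rgs9, which shuts off transducin in rods and acts on other receptors in brain, fell by 0.61 (adjusted p = 0.00223 by limma, SE 0.107). Of 7 receptor kinases and beta-arrestins, which shut receptors off, limma, edgeR and DESeq2 called 0 each, and 0 had an unadjusted limma p under 0.05. With the replicate block 2 were called, Grk6 lower (log2 fold change -0.27) and Arrb1 higher (0.21), which were named after their values were seen, and 2 of 7 is near the 30.3% of all genes.

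Genes that make, bind or break down retinoids were called in both directions, 3 higher and 3 lower of 25 identifiers tested, with a median of 0.00. With the replicate block 10 were called, 4 higher and 6 lower. These counts are near the 18.8% of all genes called without the block and the 30.3% with it, so they are no result about retinoid genes as a group. Crabp1, which binds retinoic acid in the cytosol, fell, at 99.5 ± 21.1 normalized counts in control nuclei against 25.0 ± 9.90 (SD, n = 5 per group), a log2 change of -2.02 (adjusted p = 0.000568 by limma, SE 0.271). Rlbp1, which carries cis-retinal in glia and pigment epithelium, fell by 0.65 (limma adjusted p = 0.00329). Rdh12, a retinal reductase, rose, at 25.9 ± 5.48 against 58.4 ± 8.66 (SD, n = 5 per group), a log2 change of 1.15 (adjusted p = 0.00169 by limma, SE 0.192). Bco2, which cleaves carotenoids, rose by 0.68 (limma adjusted p = 0.0320). Lrat, which makes retinyl esters, rose by 1.41 (limma adjusted p = 0.0374), in 4 of 5 pairs, and passed the filter only through shOpn3, since its shControl mean was 9.06. With samples left out, the count of retinoid genes called ran from 3 to 6. It was 3 without shOpn3 replicate 5 and without both samples of replicate 2, 3 or 5. Rpe65, the isomerase that restores cis-retinal in the eye, was read at 641 ± 113 in shControl against 487 ± 102 in shOpn3 (SD, n = 5 per group), a log2 change of -0.40 (adjusted p = 0.0952 by limma, and 0.0112 with the replicate block).

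**Figure D4:**
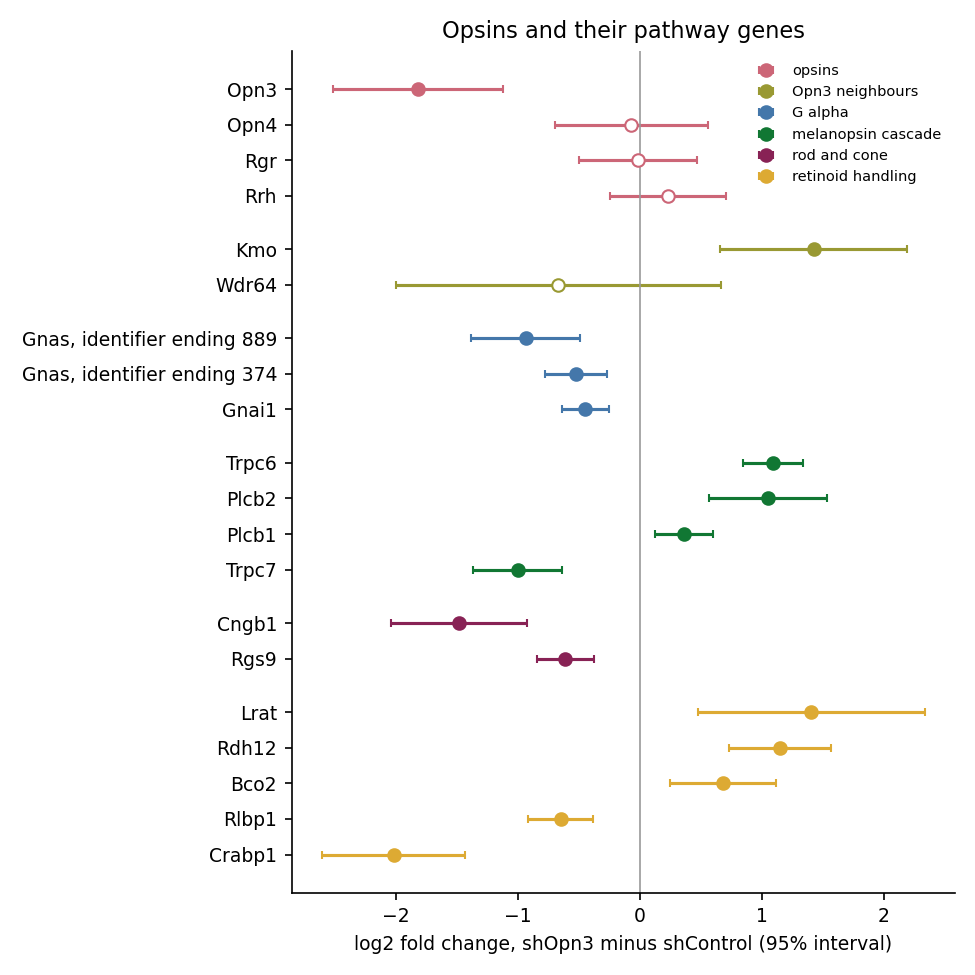
Log2 fold change (shOpn3 minus shControl) with its 95% interval for the 4 opsins tested, the neighbours of Opn3 and the called genes of each pathway list, up to 5 a list. Filled points had a limma adjusted p under 0.05; Opn3 lies at -1.82, while the intervals of Opn4, Rgr and Rrh span 0.

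The genes whose values followed Opn3 most closely were sought among 12541 genes with a mean of at least 100 normalized counts. The measure was the root-mean-square difference between centred log2 values over the 10 samples, where a gene with no variation would be at 1.06. Caprin2, an RNA-binding protein known in this nucleus for binding vasopressin transcripts, was closest at 0.25. Next came Cngb1 (0.28), Fezf2 (0.34), a transcription factor of forebrain development, Nmur2 (0.35), the receptor for neuromedins U and S, and Glp1r (0.36), the receptor for glucagon-like peptide. Caprin2 had 7127, 9006, 9518, 11405 and 2780 normalized counts in the shControl samples 1 to 5 and 3329, 2865, 2068, 2372 and 1236 in shOpn3. As for Opn3, replicate 5 was the low control, it fell below shOpn3 replicate 1, and shOpn3 replicate 5 was the lowest sample of all. Fezf2, Nmur2 and Glp1r had log2 changes of -1.61, -1.52 and -1.50, with no overlap between the groups. Caprin2 fell by 1.68 in log2 units (adjusted p = 0.00648 by limma, SE 0.357). These 5 genes were chosen on values that held the group difference. Their falls, the lack of overlap and the low replicate 5 thus follow in part from the choice and are no separate result.

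With values centred within each group, so that the group difference was removed, Cngb1 (0.23) and Caprin2 (0.24) were again the closest of 12541 genes, whose median was 0.56. A gene with no variation would be at 0.54. Zfp791 (0.27), a zinc finger gene, Oprk1 (0.29), the kappa opioid receptor, and Parm1 (0.30), a mucin-like membrane protein, came next. Zfp791, too, was highest in replicate 4 and lowest in replicate 5 of the controls, which follows in part from the choice. Its log2 change was 0.13 (adjusted p = 0.713 by limma, SE 0.213). Oprk1 and Parm1 fell by 0.97 and 1.30 (limma adjusted p = 0.0110 and 0.00293).

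**Figure D5:**
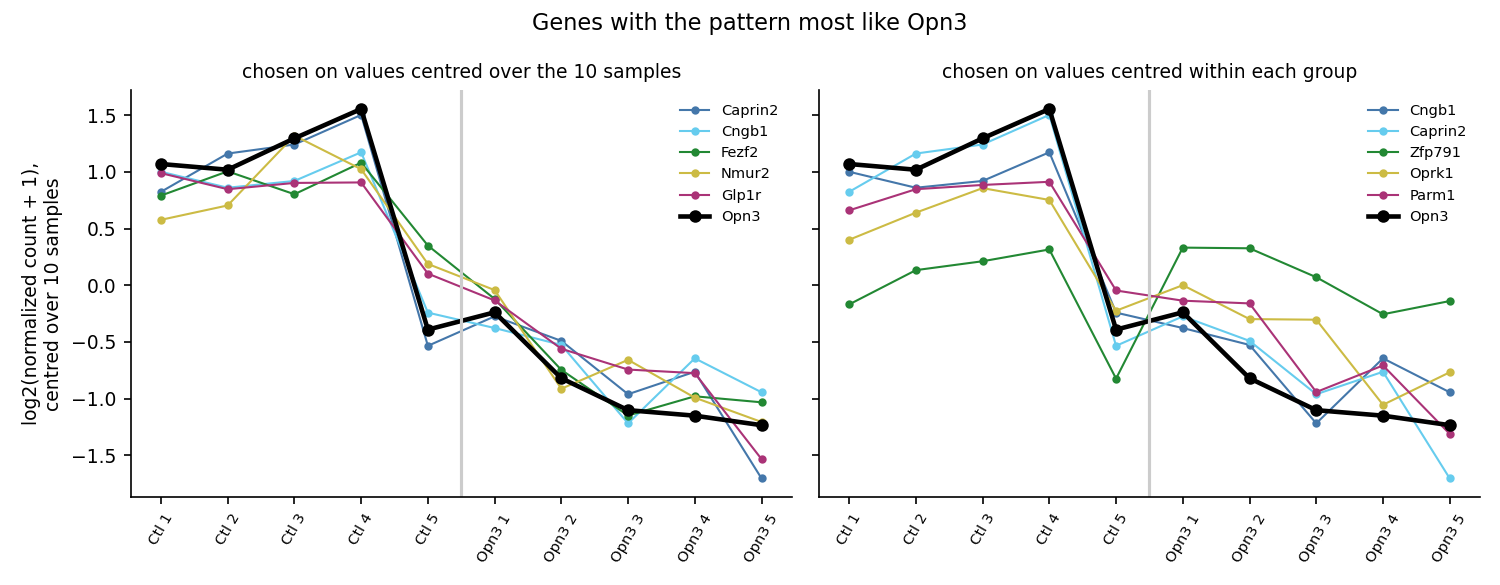
Log2(normalized count + 1), centred over the 10 samples, for Opn3 (black) and the 5 genes nearest to it when values were centred over the samples (left) or within groups (right). The genes were chosen for likeness to Opn3, so the dip at shControl replicate 5 in both panels follows from the choice. On the left, so does the fall in shOpn3. Zfp791 is the line on the right whose shOpn3 samples lie near its controls.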

How the data were processed

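RNA sequencing values of 10 samples were read from 1 deposited table. Its signal columns held reads per gene after the authors' division by a size factor for each sample. All positive values were whole multiples of the sample's smallest one (100% within 0.01), which gave back the reads. Per the file headers, it also held the authors' log2 fold change with its standard error, a score (Wald statistic), and p-values before and after adjustment, which were not used for the results above. FastQC, STAR, featureCounts and DESeq2 are named in the submitters' processing notes, and versions, genome build, annotation and strand setting are not given in the sources used here.

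Values were taken as log2(normalized count + 1), which understates changes of low genes. Genes with a mean of at least 10 (15597) were fitted with limma 3.58.1 in R 4.3.3 (trend, group alone), two-sided, with Benjamini-Hochberg adjustment over all of them and a threshold of 0.05. Errors are SD or, for fold changes, SE. The fit was tested on simulated data. Alternatives were the pseudocount, the filter, quantile normalization, sample weights, left-out samples, a replicate block, and edgeR 4.0.16 and DESeq2 1.42.0 on recovered reads. They called 3025 and 3711 genes in all. DESeq2 gave the deposited fold changes.

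Deviations from the group means correlated across genes in each same-numbered pair (r from 0.12 to 0.44), against -0.45 to 0.36 (median -0.21) for different numbers. Such deviations sum to 0 within a group, which can pull the correlations of different numbers below 0, so these are no neutral baseline. Per the labels' protocols both hairpins were given to the same rats, so the numbers were taken as pairs. A single gene was left out of the gene lists and is not reported here. The opsins and gene lists were chosen with earlier results of these data known. Named genes were the opsins, genes next to or overlapping Opn3, the up to 5 largest called changes of each pathway list, the 5 genes most like Opn3 by each measure, Avp and Oxt. Other genes are given with their lists or where a result turned on them. Promoter windows are from RefSeq (GRCr8), where 5 of 5 opsins were matched by symbol. Floors of 3 reads cover counting error only. Of the other marker lists, oligodendrocyte precursors had 2 of 4 genes called lower, while endothelium (0 of 4), ependyma, tanycytes and choroid plexus (0 of 2) and retinal photoreceptors (0 of 1) had none called by limma, with 0, 1 and 0 at an unadjusted p under 0.05 and 0 or 1 called with the replicate block. Over all genes tested, 18.8% were called without the block and 30.3% with it.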

Additional observations from a re-analysis of the deposited data

Results flagged for a closer look

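Among 64 group values (32 identifiers in 2 groups), 5 held a library whose distance from the nearest other took up an unusual share of its group's range, where chance at 1 in 20 gives about 3.2. In shControl replicate 1, Kmo was read at 106 normalized counts against 54.9 in the nearest library, and this is the control that overlaps the knock-down samples. In the same library Oxt was at 56716 against 21354. In shControl replicate 5, the control with the lowest Opn3, Trpc7 stood at 281 (next 458) and Glp1r at 251 (next 421). Glp1r was chosen for likeness to Opn3, so its low value there follows in part from the choice. The 32 identifiers are not independent, so the number given for chance is only a rough guide. Opn1sw stood at 7.49 in shControl replicate 4 (next 3.16), which is 8 reads.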

How the results depend on the processing

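Opn3 was called lower in each of 24 alternatives (log2 change between -2.15 and -1.60, largest adjusted p 0.0212), and it was the 1 opsin called in each. Rrh stayed uncalled and above 0 in 23, at 0.014 with quantile normalization, 0.46 with sample quality weights and 0.13 to 0.36 with samples left out. Opn4 and Rgr stayed uncalled, and their signs varied: with samples left out, Opn4 ran from -0.25 to 0.19 and Rgr from -0.23 to 0.11, and Rgr was at 0.031 with sample quality weights. Leaving samples out moved the Opn3 ratio to Opn4 between -2.14 and -1.42, to Rgr between -2.21 and -1.45, and to Rrh between -2.43 and -1.86. These ratios lost their call without both samples of replicate 1, 2, 3 or 4, where 4 pairs are left and the adjusted p was 0.0571 or 0.0857. With the replicate block, ratios were tested by exact sign flips over 5 pairs, which cannot pass the threshold (p = 0.0625 for -1.75, -1.80, -2.05 and, against neuronal markers, -1.84).

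With the replicate block the called members were 5 of the G protein alpha subunits (3 without it), 2 of the receptor kinases and beta-arrestins (0) and 10 of the retinoid genes (6), with 1 gene more each in the melanopsin cascade (5, against 4) and in rod and cone transduction (3, against 2). Sample weights gave 1 receptor kinase or arrestin. With samples left out, the receptor kinases and arrestins gave 0 to 1 (1 without shOpn3 replicate 1) and the retinoid genes 3 to 6 (3 without shOpn3 replicate 5 or without both samples of replicate 2, 3 or 5). The causes of these moves were not tested. The block changed no call of an opsin. A mean of at least 50 leaves Opn3 as the only opsin tested, so it gives no ratio between opsins. At this depth Opn5 was under 3 reads in every library. For Opn4, Rgr and Rrh, changes inside their intervals, which are from the fit without pairs, are not excluded. The smallest change these samples could detect was not computed.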
